A study of Bos taurus with 18 samples.

Results

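The regions described here are 2000-bp tiles of the bovine autosomes that were unmethylated in sperm while the tile on each side was methylated. They were selected on measured methylation: on chromosomes 1 to 29, a tile qualified when at least 9 of 18 bulls listed a CpG position in it, the mean over bulls of each bull's mean methylation was at most 20%, and both adjacent tiles were listed in the same way at 70% or more. Of 1176978 tiles listed in 9 or more bulls, 2935 met the rule (0.249%), and they made up 12.6% of the 23319 tiles at 20% or less. Their low level and their methylated neighbours follow from the rule and are given as a description. The median over all listed tiles was 92.1%, and 87.8% of them were at 70% or more, so these tiles are small exceptions in a methylated genome.

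Most CpG sites of the mammalian sperm genome are methylated. The stretches that are not lie mainly at CpG islands, which keep many CpG sites within a short distance and often hold the promoters of housekeeping and developmental genes. Methylation at such islands is associated with silencing of the gene they serve, and many repeated elements, by contrast, are kept methylated in the germ line.

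DNA methylation was measured in sperm from 18 adult Holstein bulls, with 1 library each, by bisulfite sequencing of the whole genome, in which unmethylated cytosines are converted and methylated ones are read unchanged. The labels give a bull as high or low for up to 5 traits, which are the length of gestation (GL), the calving ease of a sire (SCE), the depth of the body (BDE), and the conception rates of cows (CCR) and of sires (SCR). High for GL were L05, L03, H09 and H03, and low were L07, L01, H05 and H02. High for SCE were L02, H07 and H03, and low were L09, H06 and H01. High for BDE were L08, L03 and H02, and low were L02, H09 and H05. High for CCR were L06, H09 and H08, and low were L09, L08 and H06. High for SCR were H03, H02 and H01, and low were L03, L02 and L01. H04 and L04 carry no group. Many bulls serve several traits, so the 5 comparisons are not independent of each other.

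The bulls listed between 2858992 and 22048556 positions covered by at least 10 reads. H01 stood apart with the fewest, and it listed 1398 of the 2935 isolated tiles, whereas L05 listed 2923. Coverage was given for 6 bulls only, so the depth behind the values of the other 12 is unknown. Coordinates are those of the UMD3.1 build. A genome and gene annotation of that build were not used here, so the tiles are given by position, without their bases or the genes they overlap, other than the 25 fine-mapped genes named further down.

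The cut-offs passed through a continuum. The 3 tiles just inside the 20% limit were between 19.9936% and 19.9979% and the 3 just outside between 20.0254% and 20.0305%, and 1988 more tiles with the same methylated neighbours lay above 20% and up to 30%. On the other side of the rule, 1132 low tiles missed it because their less methylated neighbour was between 60% and 70%, the nearest of them at 69.9937%, whereas the nearest inside was at 70.0079%. The fixed grid mattered as well. When the tiles were shifted by 1000 bp, 2952 tiles met the rule, of which 118 (4%) overlapped a tile of the original set. The centre of the unmethylated stretch, defined further down as the core, lay in the middle 1000 bp of the tile in 2563 of the isolated tiles (87.3%).

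The isolated tiles were rich in CpG sites, a property that the rule did not use. They held a median of 50 CpG sites with at least 1 listed position and 76 distinct listed positions, against 16 sites and 28 positions over all listed tiles. At least 50 sites were listed in 1482 isolated tiles (50.5%) and in 3.76% of all tiles, and at least 20 sites in 95.3% and 35% respectively. The 11995 low tiles that lie beside another low tile, called runs here, had a median of 43 sites. The 8389 other low tiles, with no low tile beside them, had a median of 46. At least 50 sites were listed in 44.5% of the run tiles and 45.6% of the other low tiles. The adjacent methylated tiles held a median of 19 sites. The mean coverage in the 6 bulls that list it had a median of 11.6 reads in the isolated tiles and 11.7 in all tiles. Positions under 10 reads are unlisted, so a count of sites is a lower limit that depends on depth.

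The unmethylated stretch was outlined more closely from single positions. For each tile, the core was taken as the contiguous stretch, within the tile and its neighbours, over which positions scored as 50 minus their mean percent gave the highest sum. Only positions listed in 3 or more bulls were used for the core, its sites and its densities. The counts of sites per tile above took positions listed in any bull, so the 2 kinds of count are not directly comparable. The core was 1693 bp wide in the median (quartiles 1286 and 2048 bp), it exceeded 1000 bp in 2513 tiles (85.6%) and 2000 bp in 826 (28.1%), and it lay wholly within its tile in 1173 (40%). It held a median of 31 CpG sites with a mean methylation of 6.60%. In the core there were 1.99 CpG sites per 100 bp and in the rest of the 3 tiles 0.768, and the density was higher inside in 2683 of 2935 tiles (91.4%). A core begins and ends at a listed position, which by itself raises its density, most of all in a narrow core. Where both strands of a CpG were listed in a core, their means lay within 10 points of each other at 29968 of 31690 sites (94.6%). The core was chosen for low values on both strands, so this closeness follows in part from the choice.

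**Figure D1:**
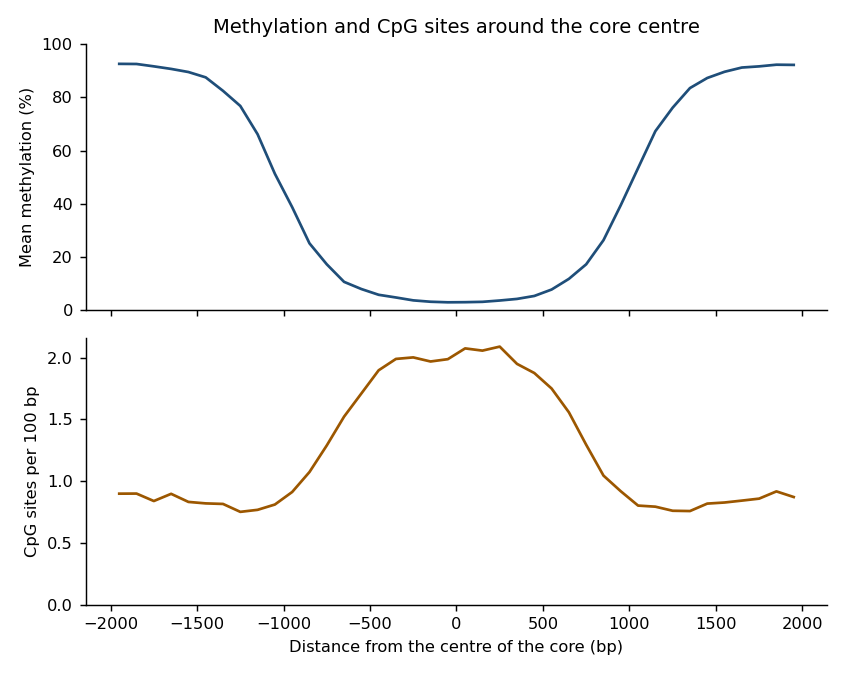
Mean methylation in percent (upper plot) and listed CpG sites per 100 bp (lower plot) in 100-bp bins against the distance from the centre of the core in bp, over the 2935 isolated tiles. Only positions listed in 3 or more bulls enter. Methylation was 3.04% in the bin left of the centre and 92.5% in the bin 1950 bp to the left, with 1.99 and 0.899 sites per 100 bp.

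Among tiles listed in all 18 bulls with at least 20 positions, the largest drop from the neighbours was at chr7:39894001-39896000, which averaged 3.43% between tiles at 96.3% and 96.8%. Its bulls ran from 0% in H01 through a median of 2.49% to 18.2% in L03, whose value rests on 1 position, and its core of 1728 bp held 57 CpG sites. The tile chr3:34238001-34240000 averaged 3.14%, with bulls between 0% and 6.88%, beside tiles at 96.7% and 95.2%. The tile chr26:22692001-22694000 averaged 2.01%, with bulls between 0% and 3.52%, and its neighbours were at 92.2% and 95.2%. At chr8:23262001-23264000 the mean was 3.47% (0.726% to 5.94%), and its core of 1667 bp held 89 CpG sites at 5.34 sites per 100 bp against 0.577 around it. The tile chr4:9096001-9098000 averaged 2.84% (0% to 6.78%) between neighbours at 95.2% and 93.0%. In these 5 tiles every bull was under 20%.

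Each bull showed the isolated tiles as unmethylated. The mean over the tiles a bull listed ran from 7.18% in L05 to 14.0% in L08, and the share of them at 20% or less from 77.2% in H06 to 94.6% in L05. Only a small share was above 50% in any bull, from 0.171% in L05 to 6.01% in H01. The adjacent tiles were methylated in every bull, with medians between 86.8% in L06 and 93.1% in L03. Bulls of the high and low groups overlapped in their mean over the isolated tiles. The high-GL bulls were at 10.2% (H03), 10.9% (H09), 11% (L03) and 7.18% (L05), and the low-GL bulls at 11.4% (H02), 9.42% (H05), 11.2% (L01) and 13% (L07). The high-CCR bulls were at 9.36% (H08), 10.9% (H09) and 8.34% (L06) and the low-CCR bulls at 13.7% (H06), 14.0% (L08) and 10.7% (L09). No test was made of these means, since the tiles were chosen on the values they average. L05 and L06, with the lowest means, also listed the most isolated tiles, 2923 and 2893, and the part of depth in these means was not tested.

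**Figure D2:**
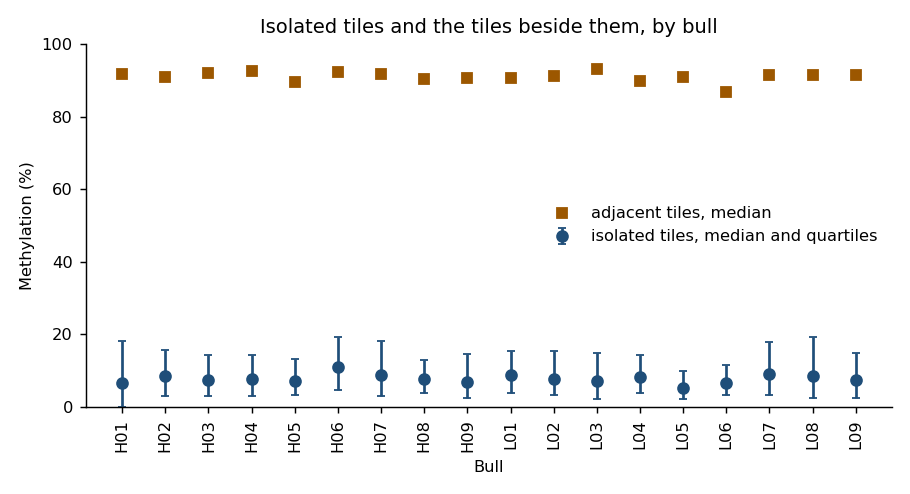
Methylation in percent of the isolated tiles (circles, median; bars, quartiles over the tiles a bull lists) and of the adjacent tiles (squares, median) in each of the 18 bulls. Medians of the isolated tiles lay between 5.05% in L05 and 11% in H06, far under the adjacent tiles in every bull.

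Over all listed positions of a tile, the isolated tiles had a wider spread between bulls than other low tiles. The standard deviation (SD) between bulls had a median of 8.03 points in the isolated tiles, 6.40 in the 8389 other low tiles with no low tile beside them, 4.32 in low tiles of runs and 5.68 over all listed tiles. Every listing bull was at 20% or less in 905 isolated tiles (30.8%), against 41.1% of the other low tiles and 50.2% of the run tiles. At least 1 bull was above 50% in 603 isolated tiles (20.5%), against 13.1% and 5.50%. Without H01 the counts in the isolated tiles were 927 and 542 and the median SD 7.81 points. Of the 697 values of a bull in a tile that were above 50%, 384 (55.1%) rested on 1 or 2 listed positions, against 8.88% of all 47800 values. The core was chosen for low values, so the spread within it is a description. Over the core, with every bull that lists a position in it, the median SD was 5.95 points. In the 2560 tiles with at least 9 bulls that list 5 or more core positions, and among those bulls only, the median SD was 4.12 points over the core and 5.67 points over all listed positions of the tile, and it was smaller in the core in 1675 tiles (65.4%). At least 1 of those bulls was above 50% in 20 cores and, over all listed positions, in 65 tiles.

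**Figure D3:**
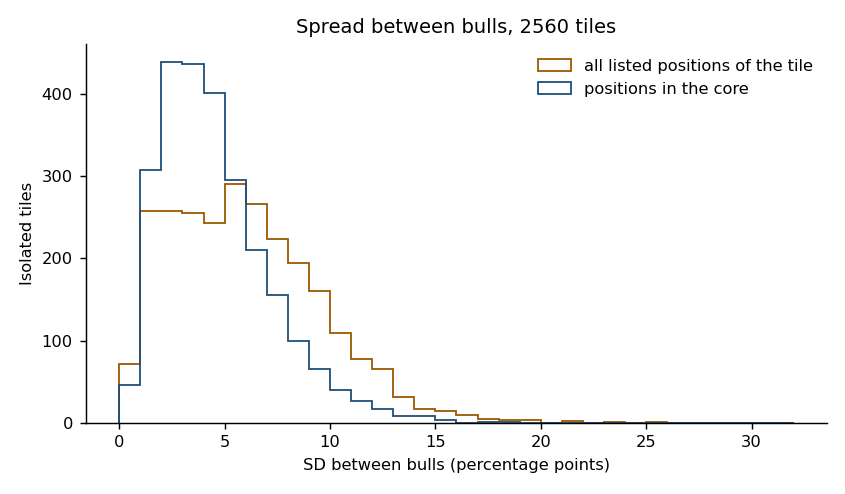
Number of isolated tiles against the SD between bulls in percentage points, over all listed positions of the tile and over the positions in its core, for the 2560 tiles with 5 or more core positions in at least 9 bulls. Both lines use the same bulls in each tile, and the median is 4.12 points over the core and 5.67 points over the tile.

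The 5 tiles with the largest SD among those listed in all 18 bulls each had their highest value in a bull with 1 listed position, which lay outside the core, so that bull is missing from the range over the core. Without that bull their SD was still between 13.3 and 22.9 points. At chr5:26488001-26490000 the bulls ran from 0.769% in H02 through a median of 10.9% to 100% in L03, which listed 1 position, with an SD of 29.9 points. Over its core of 852 bp the 16 bulls with listed positions ran from 0% to 5%, with an SD of 1.44 points. At chr8:52806001-52808000 the range was 1.69% to 100%, with H01 highest on 1 position, and over the core 1.95% to 26.3% in 16 bulls. At chr11:67780001-67782000 the range was 0% to 100%, again with H01 highest on 1 position, and over the core 0% to 24.1% in 17 bulls. At chr8:112518001-112520000 it was 0% to 83.3% with H01 highest on 1 position, and over the core 0.5% to 28.1% in 17 bulls. The widest core range was at chr22:47416001-47418000, where L03 was at 100% on 1 position and the 17 bulls in the core ran from 0% to 63.6%, with an SD of 14.9 points.

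A small part of the isolated tiles shared the arrangement of their CpG sites. For the 2802 tiles with at least 30 listed positions, the positions of each pair were laid over each other at every offset, in both orientations, and the largest number that coincided was taken as a share of the smaller tile's positions. Over 3924201 pairs this share had a median of about 18%, and the highest 1 in 1000 pairs began at about 40%. In 370 pairs it reached 60%, a limit chosen after the shares were seen. These pairs linked 54 tiles (1.84% of all isolated tiles), of which 45 on 23 chromosomes formed 1 group with 364 linked pairs, 171 of them in opposite orientation. The remaining links joined 5, 2 and 2 tiles. Groups were joined through chains of links, so the tiles of a group need not all be linked to each other. In the group of 45, the tile with most links had 31. The pair with most coinciding positions was chr1:34922001-34924000 (11.1% methylation, 192 positions) and chr8:38630001-38632000 (12.0%, 231 positions), in which 175 positions coincided, 91.1% of the smaller set.

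The comparison of positions did not use level or spread, but the rule caps the level at 20%, and deeper coverage lists more positions that can coincide. In the 45 tiles of that group the median level was 12.6% (8.86% to 19.2%) and the SD between bulls had a median of 2.27 points, against 8.17 in the isolated tiles without a link. The mean coverage in the 6 bulls with listed reads had a median of 31.7 reads (15.3 to 53.5) against 11.6, they held a median of 120 listed positions against 76, and 40 of the 56 isolated tiles above 20 reads belonged to the group. All 18 bulls listed 44 of the 45 tiles. No bull was above 50% in any of them, and every listing bull was at 20% or less in 31. The bulls' means over the 45 tiles lay between 11.6% in H03 and 16.1% in H06. Of the 5 isolated tiles with most listed positions, 3 belonged to the group: chr8:38630001-38632000 averaged 12.0% with bulls between 9.48% and 15.2%, chr5:83594001-83596000 averaged 12.6% (10.8% to 15.2%), and chr6:33082001-33084000 averaged 11.5% (9.54% to 14.4%). The other 2, chr8:59158001-59160000 at 4.80% (1.43% to 11.1%) and chr24:62712001-62714000 at 9.51% (5.59% to 14.2%), were not in it.

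**Figure D4:**
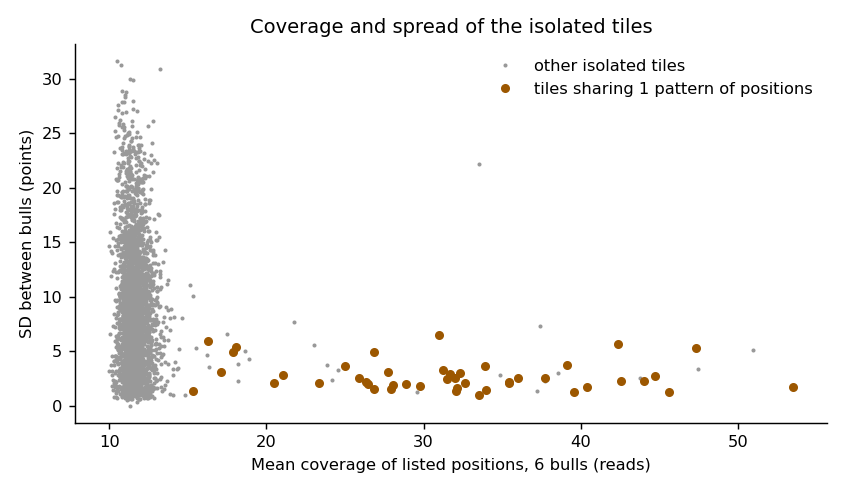
SD between bulls in percentage points against the mean coverage of listed positions in the 6 bulls with coverage, for every isolated tile. The 45 tiles of the largest linked group (large points) lie at 15.3 to 53.5 reads with an SD of at most 6.47 points. They are joined by chains of links and need not all share 1 pattern of positions. The other isolated tiles crowd near 11.6 reads.

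The pattern of the tile with most links also occurred outside the isolated tiles. The tile with most links in the group, chr8:38630001-38632000, was laid over all 545654 autosomal tiles with at least 30 listed positions, and 816 other tiles on 29 chromosomes (0.150%) shared at least 60% of positions with it. Of these, 738 (90.4%) were at 20% or less, 71 lay between 20% and 70% and 7 were at 70% or more. By comparison 18336 of all tiles searched (3.36%) were at 20% or less. The isolated tiles among the 816 numbered 31, and 661 of the low ones lay beside another low tile. Copies of one sequence keep the spacing of their CpG sites, and reads from near-identical copies cannot be assigned to one of them with certainty. Whether these tiles hold such copies was not tested, so their levels and coverage are uncertain for any single tile.

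Over all listed tiles the median was 92.1%, with 87.8% of tiles at 70% or more and 1.98% at 20% or less. At a distance of 2 tiles the median was 93.7%, with 93.7% of tiles at 70% or more and 1.05% at 20% or less. Each of these tiles adjoins a tile that the rule holds at 70% or more, so their higher level may follow from the rule. At 10 tiles the median was 92.9%, with 86.5% at 70% or more and 2.68% at 20% or less. The immediate neighbours were the least methylated, at a median of 89.1%, and cores that reached over the edge of the tile lay partly in them. The nearest other isolated tile was 184000 bp away in the median, and within 10000 bp in 106 tiles (3.61%). The nearest run lay at a median distance of 258000 bp, and within 10000 bp of 84 tiles (2.86%). The isolated tiles were spread over all 29 autosomes but not evenly. Chromosome 19 had 4.96 per 1000 listed tiles, chromosome 18 had 4.84 and chromosome 25 had 4.71, whereas chromosome 9 had 1.46, chromosome 6 had 1.49 and chromosome 28 had 1.53. As a share of all low tiles of a chromosome the order was another one, with 14% on chromosome 19, 11.4% on chromosome 18 and the highest share, 21.8%, on chromosome 22.

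Fine-mapped genes of the study were extended by 2000 bp on each side. Of these 25 genes, 16 held a tile at 20% or less and 1 held an isolated tile. Other genes were not counted, so whether these numbers are high or low for genes is unknown. That gene was ZNF613, a zinc finger gene on chromosome 18, and the tile was chr18:58100001-58102000. It averaged 3.21% between tiles at 84.6% and 83.7%, with bulls from 0% in H09 through a median of 2.26% to 19.2% in L08, which listed 2 positions. Its core of 2277 bp held 60 CpG sites at 2.80%.

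Whether methylation of the isolated tiles differed between bulls of high and low merit was examined within a test of all tiles listed by every bull of a comparison. A tile was called when a logistic test on pooled reads gave q under 0.01 (SLIM-type adjustment over all tiles) and the groups differed by more than 5 points. The spread from bull to bull does not enter this test. The share of isolated tiles called was above that of all tiles in all 5 comparisons, which was not itself tested. A pooled test calls smaller differences where more positions are listed. The median bull listed 14 positions in isolated tiles and 7 in all listed tiles, as medians over tiles, and the part of this was not tested. The shares that differed by over 5 points, at any q, were closer. They were 25.8% against 19% for GL, 34.6% against 24.6% for SCE and 35.7% against 24.8% for BDE. For CCR they were 36% against 24.3% and for SCR 30% against 24.8%. For GL, 409 of 2006 tested isolated tiles were called (20.4%), against 8.75% of all 593044 tiles. For SCE the count was 221 of 1191 (18.6%) against 6.18%, for BDE 337 of 1753 (19.2%) against 7.57%, for CCR 462 of 1774 (26.0%) against 11.1%, and for SCR 248 of 1221 (20.3%) against 8.68%. The median difference, high minus low, was -1.28 points in the isolated tiles and 0.525 in all tiles for GL, -0.868 and -0.335 for SCE, 0.555 and 0.557 for BDE, -2.15 and -0.968 for CCR, and -0.331 and -0.00735 for SCR. A raised share was not particular to the isolated tiles. The other low tiles with no low tile beside them were called in 14.5%, 10.2%, 14.0%, 18.8% and 13.1% of cases for GL, SCE, BDE, CCR and SCR, also above all tiles in each comparison. Low tiles in runs were called in 6.94%, 4.70%, 5.78%, 7.89% and 6.45% of cases in the same order. Without H01, which entered SCE and SCR, 433 of 2135 (20.3%) and 493 of 2297 (21.5%) isolated tiles were called, against 6.80% and 9.38% of all tiles then tested.

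**Figure D5:**
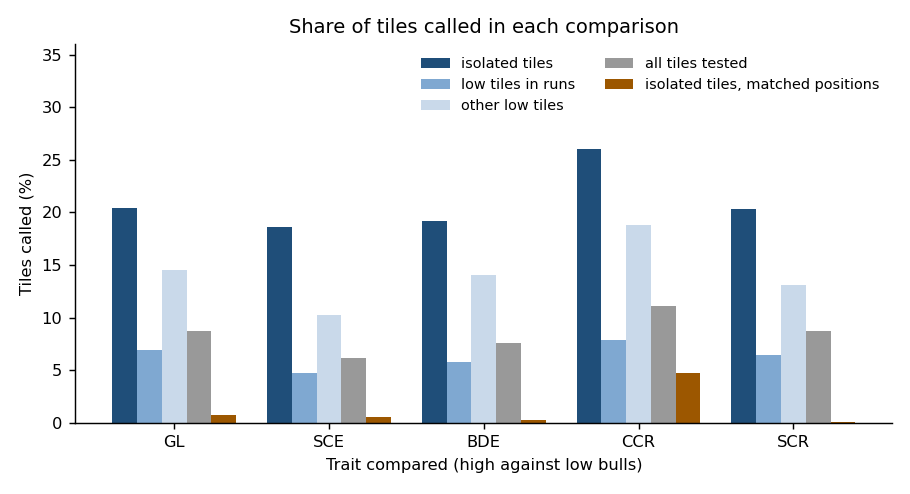
Share of tiles called in percent for each trait, for the isolated tiles, low tiles in runs, other low tiles (in no run and not isolated) and all tested tiles, and for the isolated tiles when only positions listed in both groups were compared. Isolated tiles have the highest bars, 18.6% to 26.0%, above the other low tiles at 10.2% to 18.8%, and fall to between 0.082% and 4.74% at matched positions.

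The higher share of calls was not found at matched positions, where the share called was under that of all tiles for GL, SCE, BDE and SCR and close to it for CCR. A position at a low level has little room for a loss over 5 points, and a highly methylated position little room for a gain. The cores had a median level of 6.60% and all listed tiles 92.1%, and the part of this was not tested. At matched positions, which 1 or more bulls of each group list, tested by a stratified Cochran-Mantel-Haenszel test with 10 reads per position, 15 isolated tiles were called for GL (0.748%, against 2.19% of all tiles), 6 for SCE (0.504% against 1.31%), 4 for BDE (0.228% against 1.60%), 84 for CCR (4.74% against 4.40%) and 1 for SCR (0.082% against 1.17%). The high and low bulls did not overlap in 3.64% of isolated tiles for GL against 3.30% of all tiles. The shares were 10.7% and 9.26% for SCE, 10.3% and 10.1% for BDE, 12.1% and 9.94% for CCR, and 8.35% and 9.13% for SCR. An F test with overdispersion between bulls and limma, both with Benjamini-Hochberg adjustment at 0.01, called 0 tiles in every comparison, isolated or not. A larger share of isolated tiles than of all tiles passed each test before adjustment, counted separately. The limit of 5 points, which a larger share of isolated tiles met, enters these shares too. At an unadjusted p under 0.05 and over 5 points, the F test took 80 isolated tiles for GL (3.99% against 3.47% of all tiles), 43 for SCE (3.61% against 2.46%), 82 for BDE (4.68% against 2.81%), 123 for CCR (6.93% against 2.89%) and 51 for SCR (4.18% against 2.72%). On the same terms limma took 142 for GL (7.08% against 3.59%), 90 for SCE (7.56% against 3.30%), 133 for BDE (7.59% against 3.84%), 163 for CCR (9.19% against 3.61%) and 70 for SCR (5.73% against 3.40%).

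The part of the tile that a bull listed moved with the calls. The core is the part with low values, so in a called tile a larger share of listed positions in the core goes with a lower level by construction, and the shares are a description. In the called GL tiles, the group with lower methylation had the larger share of its listed positions inside the core in 356 of 409 (87.0%), against 719 of 1597 tiles that were not called (45.0%). The median difference of that share was 7.37 points in called and 0.766 points in other tiles. The corresponding shares of called tiles were 81.9% for SCE, 83.4% for BDE, 72.7% for CCR and 87.1% for SCR, and of tiles not called 45.4%, 44.1%, 42.7% and 41.6%. Tiles in which both groups had the same share fall among the rest, and their number was not counted. The median share of a bull's listed positions in the core was 100% in every bull but H08, so ties can be frequent. The percentages of called and other tiles are therefore not directly comparable. Among called tiles, 33 of 409 isolated tiles for GL (8.07%) also differed by more than 5 points the same way at positions listed in both groups, against 44% of all called tiles with such positions. The shares were 14% (31 of 221) against 54% for SCE, 16.3% (55 of 337) against 51.3% for BDE, 34% (157 of 462) against 62.2% for CCR and 12.9% (32 of 248) against 51.5% for SCR. The low level of the cores leaves little room for a loss over 5 points but leaves room for a gain. The part of this in the shares kept was not tested. Over core positions alone, matched or not, the numbers were 111 (27.1% of the called isolated tiles), 105 (47.5%), 151 (44.8%), 237 (51.3%) and 88 (35.5%). Cores were outlined for the isolated tiles only, so no share over all tiles stands beside these.

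For GL, 327 of the called tiles (16.3% of those tested) were lower in the high-GL bulls, against 3.75% of all tiles, and 82 (4.09%) were higher, against 4.99%. A bull counts in the pooled reads by its number of listed positions. In the high-GL bulls the median number per isolated tile was 31 (L05, mean level 7.18%), 15 (H03), 9 (H09) and 8 (L03). In the low-GL bulls it was 11 (H02), 18 (H05), 18 (L01) and 10 (L07). The part of depth in the direction of the calls was not tested. In 49 called tiles (12%, against 15.8% of all called tiles) the bulls of the groups did not overlap, and the 2 largest losses and gains among these were examined one by one. The largest loss was at chr19:41840001-41842000. The high-GL bulls were at 9.86% (H03), 10% (H09), 7.73% (L03) and 1.02% (L05), and the low-GL bulls at 27.3% (H02), 28.6% (H05), 40.3% (L01) and 38.6% (L07). The means were 7.15 ± 4.22% and 33.7 ± 6.70% (SD, n = 4 each), the pooled difference was -30.2 points, and 1 high-GL bull listed 1 position only. At its 23 matched positions, however, the difference was -0.881 points and over its core 0.0162 points, and the core took 97.3% of the high-GL bulls' listed positions and 64.4% of the low-GL bulls'. The largest gain, chr6:26180001-26182000, was at 34.2%, 30%, 23.8% and 22.6% in the high-GL bulls and at 15.3%, 11.4%, 9.84% and 15.1% in the low-GL bulls, in the same order of names. The pooled difference of 16.1 points was 3.25 points at 30 matched positions and 3.58 points over the core. Here too 1 high-GL bull listed 1 position only. The second loss, chr7:112110001-112112000, had means of 4.91 ± 6.26% and 32.3 ± 16.9%. Its difference was -3.26 points at 10 matched positions and -8.37 points over the core. The second gain, chr13:36548001-36550000, had means of 18.1 ± 3.81% and 6.68 ± 1.98%. Its difference was 0.344 points at 40 matched positions and -0.00305 points over the core. The adjusted p of limma was 0.980 in each of these 4 tiles.

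For SCE, 136 called tiles (11.4%, against 3.54% of all tiles) were lower and 85 (7.14%, against 2.64%) higher in the high-SCE bulls, and bulls did not overlap in 71 of those called (32.1%, against 35% of all called tiles). The second loss was at chr7:54770001-54772000, where the groups were parted only by the narrow gap between H07 and H01. The high-SCE bulls were at 1.10% (H03), 6.10% (H07) and 3.76% (L02), and the low-SCE bulls at 9.09% (H01), 25.9% (H06) and 48.9% (L09). The pooled difference of -26.3 points stayed at -22.7 points at 21 matched positions and at -27.5 points in the core, which held 100% of both groups' positions, although 1 low-SCE bull listed 1 position only and limma gave an adjusted p of 0.99996. The largest loss by pooled difference, chr14:65414001-65416000, had means of 6.66 ± 10.1% and 40.9 ± 23.5% (SD, n = 3 each). Its difference was -8.18 points at 2 matched positions and -12.3 points over the core, with 1 low-SCE bull that listed 1 position only. The gains were smaller at matched positions or rested on few of them. The tile chr12:84404001-84406000, with means of 33 ± 13.2% and 12.9 ± 7.91%, differed by 21.9 points at 3 matched positions but by 0.468 points over its core. The tile chr5:68622001-68624000, with means of 21.8 ± 21.4% and 2.38 ± 2.71%, differed by 0.693 points at 14 matched positions and by 7.18 points over its core.

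For BDE, 132 called tiles (7.53%, against 2.86% of all tiles) were lower and 205 (11.7%, against 4.71%) higher in the high-BDE bulls, and bulls did not overlap in 98 of those called (29.1%, against 37.4% of all called tiles). The largest gain was at chr7:6450001-6452000. The high-BDE bulls were at 62.8% (H02), 62.6% (L03) and 16.7% (L08), and the low-BDE bulls at 3.96% (H05), 2.33% (H09) and 0.556% (L02). The pooled difference of 40.8 points was 10.9 points at 8 matched positions and 9.33 points over the core. The largest loss, chr19:27088001-27090000, was at 3.39% (H02), 2.60% (L03) and 2.89% (L08), and the low-BDE bulls were at 29.2% (H05), 25.6% (H09) and 50% (L02). All its listed positions lay in the core, where the difference was -27.7 points, and 3 matched positions gave -12.7 points, although 1 low-BDE bull listed 1 position only. The second gain, chr7:3984001-3986000, had means of 39.6 ± 7.19% and 9.21 ± 5.12% (SD, n = 3 each) and 13.8 points at 3 matched positions. Its difference over the core was 17.7 points, the core took 46.2% of the high-BDE bulls' listed positions and 93.8% of the low-BDE bulls', and 1 high-BDE bull listed 1 position only. The second loss, chr24:41802001-41804000, had means of 5.65 ± 5.56% and 43.8 ± 27.6% and turned to 11.1 points higher at its 3 matched positions. Over its core, matched or not, the difference was -16.6 points.

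For CCR, 395 called tiles (22.3%, against 8.48% of all tiles) were lower and 67 (3.78%, against 2.58%) higher in the high-CCR bulls, and bulls did not overlap in 129 of those called (27.9%, against 32.4% of all called tiles). The median number of listed positions per isolated tile was 39 (H08), 9 (H09) and 24 (L06) in the high-CCR bulls. In the low-CCR bulls it was 14 (H06), 5 (L08) and 9 (L09). Pooled reads count each bull by these positions, and the part of depth in the direction of the calls was not tested. The largest loss was at chr9:102246001-102248000. The high-CCR bulls were at 4.19% (H08), 7.50% (H09) and 20% (L06) and the low-CCR bulls at 39.4% (H06), 35.0% (L08) and 27.3% (L09). Its pooled difference of -31.2 points was -10.2 points at 3 matched positions and -26.4 points in the core, and in each group the bull with the fewest positions listed 1. The second loss, chr5:88958001-88960000, was at 9.06%, 0% and 11.4% in the high-CCR bulls and at 45.5%, 32.5% and 46.8% in the low-CCR bulls. It differed by -18.2 points at 7 matched positions and -27.3 points in the core, and the bulls with the fewest positions listed 1 in the high-CCR and 2 in the low-CCR group. The gains did not keep their size. The tile chr2:85792001-85794000, with means of 28.7 ± 11.1% and 3.49 ± 0.801% (SD, n = 3 each), was 4.04 points lower in the high-CCR bulls at 6 matched positions (a difference of -4.04). Over its core the difference was 1.26 points. The tile chr15:64816001-64818000, with means of 26.4 ± 4.84% and 7.70 ± 5.42%, differed by 1.33 points at 8 matched positions and by 0.821 points over its core.

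For SCR, whose 6 bulls have listed coverage, 140 called tiles (11.5%, against 4.54% of all tiles) were lower and 108 (8.85%, against 4.13%) higher in the high-SCR bulls, and bulls did not overlap in 52 of those called (21%, against 31.3% of all called tiles). The tile chr1:114144001-114146000 had the tightest groups. The high-SCR bulls were at 12.3% (H01), 8.06% (H02) and 10.2% (H03) and the low-SCR bulls at 31.5% (L01), 30.4% (L02) and 32.4% (L03). Its pooled difference of -24.0 points was -16.9 points at 11 matched positions and -9.60 points over the core. The largest gain, chr19:29652001-29654000, was at 85.8% (H01), 41.0% (H02) and 51.2% (H03) against 1.25% (L01), 5.19% (L02) and 9.83% (L03). Its 45.8 points fell to 0.351 points at 9 matched positions and to 7.19 points over the core. The core took 36.8% of the high-SCR bulls' listed positions and 94.9% of the low-SCR bulls'. The largest loss, chr11:71930001-71932000, had means of 3.45 ± 4.93% and 26.7 ± 15.8% (SD, n = 3 each). Its difference was -0.811 points at 11 matched positions and -6.33 points over the core, with 1 high-SCR bull on a single listed position. The second gain, chr20:37594001-37596000, had means of 37.1 ± 13.4% and 4.61 ± 6.89% and 7.82 points at 3 matched positions, again with 1 high-SCR bull on a single listed position.

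All 45 tiles of the largest linked group were tested for GL, SCE and SCR. The logistic test made 0 calls among them, against 8.75%, 6.18% and 8.68% of all tiles. For BDE 2 of 45 were called, against 7.57%, and for CCR 4 of 44, against 11.1%.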

How the data were processed

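Methylation was measured genome-wide by bisulfite sequencing in sperm of 18 bulls. According to the submitters' notes and the study's methods, the authors trimmed reads with Trim Galore 0.4.0, checked them with FastQC 0.11.2, aligned them to UMD3.1 with Bowtie2 inside Bismark 0.14.5 and retained positions with 10 or more reads. The deposited values are the percent of methylated reads per CpG position. For 6 bulls the deposited files also hold the count of reads, for the other 12 the depth is unknown, and intervals are not given. Positions of both strands were kept apart and joined only to count CpG sites.

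The tiles and lists were chosen with earlier results of these data known. The design assumed read counts for all bulls. Each position therefore counted as 10 reads, and SCR used the listed counts. Groups were compared by a logistic likelihood ratio test over all tiles of all chromosomes, with q from a simplified SLIM estimate. Alternatives were 13 reads per position (10 for SCR), an F test with overdispersion (at least 1), limma 3.58.1 (R 4.3.3) on log2 ratios with 1 read added, computed from the deposited values, Benjamini-Hochberg adjustment, other thresholds, matched positions and each bull left out. Bulls are separate animals with 1 library each. Named tiles are, per trait, the 2 largest losses and gains among called tiles with groups apart, and the 5 with the largest drop, the largest SD and most positions. Patterns of positions and cores were compared after the data had been seen. Gene lists of the plan were not used here, nor were sequences. Python 3.11.15, NumPy 2.4.6, SciPy 1.17.1 and Matplotlib 3.10.9 were used. The tests were tried on simulated reads of a single chromosome in the GL bulls. No spread between bulls was simulated and differences were set in more methylated tiles only, so the isolated tiles were not covered.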

Additional observations from a re-analysis of the deposited data

Results flagged for a closer look

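Among the named GL tiles, chr7:112110001-112112000 had 1 bull far from the other high-GL bulls: H09 was at 14.3%, whereas H03, L03 and L05 were at 2.21%, 0.962% and 2.19%. Chance alone flags about 1 in 20 groups by this comparison of a gap with the range.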

How the results depend on the processing

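The number of isolated tiles was 226 when all 18 bulls had to list the tile and its neighbours, 1312 at 10% or less in the tile and 1801 at 80% or more in the neighbours, and between 2850 and 2971 with 1 bull left out. It stayed within 1.5 times of 2935 under the other settings, but the mean over distinct positions gave 4328 tiles that shared 2282 with the set, and the shifted grid gave other tiles (see the overlap of 118). The called tiles fell, in the order GL, SCE, BDE, CCR and SCR, to 0, 0, 0, 0 and 0 with the F test and with limma, to 15, 6, 4, 84 and 1 at matched positions, and to 129, 136, 195, 216 and 131 over 10 points (6.43%, 11.4%, 11.1%, 12.2% and 10.7%, against 4.90%, 4.65%, 5.53%, 7.09% and 5.64% of all tiles). With 3 or more positions per bull and tile, fewer tiles were tested and 95 were called for SCE (15.7%, against 6.63% of all tiles), 207 for BDE (19.2% against 8.15%), 306 for CCR (26.1% against 11.4%) and 124 for SCR (20% against 9.33%). Called tiles that also differed over the core, a comparison added after seeing the data, numbered 111, 105, 151, 237 and 88. These were 27.1%, 47.5%, 44.8%, 51.3% and 35.5% of the called isolated tiles, without a share over all tiles, which have no core. With 1 bull left out the counts ran from 365 to 487, 208 to 433, 337 to 398, 379 to 582 and 246 to 493, while the number tested changed too. Their shares ran from 18.2% to 23.1%, 17.3% to 20.5%, 19% to 19.7%, 20.8% to 30.5% and 20% to 22.8%, and those of all tiles from 7.84% to 9.12%, 6.17% to 6.80%, 6.93% to 7.79%, 8.53% to 16.9% and 8.47% to 9.38%. The upper ends for SCE and SCR, 433 and 493, were those without H01. The other read number and Benjamini-Hochberg adjustment kept every count within 1.5 times. Depth limits these results in 12 bulls, where it is unknown. The bulls' names repeat their numbers between the groups of CCR and SCR. A limma fit with that number as a replicate block, added after seeing the data, called 0 isolated tiles in both and, at an unadjusted p under 0.05 and over 5 points, 164 (9.24%, against 3.38% of all tiles) and 76 (6.22% against 3.50%). The deviations of same-numbered bulls correlated between -0.0514 and 0.0106. Of the high bulls, 0 of 3 for CCR and 1 of 3 for SCR were closest to their own number. So few pairs cannot tell whether the number marks anything that the bulls share. In limma, the smallest adjusted p over all tiles for CCR was 0.0400 with the block and 0.171 without it. For SCR these limma values were 0.99975 and 0.576.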
